A study of Mus musculus with 8 samples.

Results

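Transcript counts of 10 transcription factors of the erythroid and megakaryocytic lineages were examined in single bone marrow cells of mice at 4 ages. The members were chosen by name, as known factors of these lineages, and not by a threshold on a measured value. They are Gata1, Gata2, Klf1, Tal1, Zfpm1, Gfi1b, Nfe2, Lmo2, Fli1 and Runx1, and all 10 were present among the 32285 genes of each of the 8 count matrices. The cells were haematopoietic stem and progenitor cells (HSPCs), sorted as lineage-negative and c-Kit+ from freshly collected bone marrow of wild-type mice, with 1 mouse per library. The young mice were 14 weeks old, the middle-aged mice 50 weeks, the old mice 78 weeks (male) and 79 weeks (female), and the very old mice 95 weeks, with 1 male and 1 female at each age. No strain is named in the labels of these samples. The libraries of both very old mice belong to another library series than the other 6, so that the very old age and the series they came from cannot be told apart. As each group holds 2 mice, p-values rest on the spread between single mice pooled over the ages.

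GATA2 and GATA1 are zinc-finger proteins that recognise the same short GATA motif. GATA2 works in stem and progenitor cells and in mast cells, and during erythroid maturation GATA1 takes over at shared sites, a handover known as the GATA switch. TAL1, a basic helix-loop-helix protein, LMO2, an adaptor without DNA binding of its own, and GATA factors form a common complex, while ZFPM1 (FOG1) is a cofactor of GATA1 and GFI1B is a repressor that acts with them. KLF1 binds CACCC motifs and activates the adult β-globin gene, FLI1 is an ETS-family factor that promotes the megakaryocytic fate, NFE2 is needed for platelet production, and RUNX1 is needed for the emergence of stem cells and for megakaryocyte maturation. KLF1 and FLI1 are known to oppose each other at the branch between red cells and platelets.

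Because the proteins bind the promoters and enhancers of one another, RefSeq promoter sequences of the members at the centre of the switch are shown here, read on the gene's own strand from GRCm38.p6 and ending at the base before the annotated start. Capitals mark 2 motifs, each on either strand. The GATA motif was AGATAA, its variant AGATAG, or likewise TGATAA with its variant TGATAG, and the other motif was CACCC. The GATA letters occur in 26.5% and CACCC in 52.0% of 32851 promoter windows of 250 bases of the mouse genome. The Gata1 window (chrX:7967911-7968160, minus strand) held CACCC at 2 places and no GATA letters, the upstream of 2 Gata2 windows (chr6:88193641-88193890, plus strand) neither, and the Klf1 window (chr8:84901732-84901927, plus strand, cut to the 196 bases outside annotated exons) 1 of each. The Gfi1b window (chr2:28621983-28622232, minus strand) also held 1 of each. The other Gata2 window (chr6:88198414-88198663, plus strand), not printed, held CACCC at 1 place and no GATA letters.
Gata1: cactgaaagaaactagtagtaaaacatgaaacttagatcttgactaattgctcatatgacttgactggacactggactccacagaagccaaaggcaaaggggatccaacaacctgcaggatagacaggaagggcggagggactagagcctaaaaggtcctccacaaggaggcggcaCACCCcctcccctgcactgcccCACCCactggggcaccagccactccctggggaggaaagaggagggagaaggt
Gata2: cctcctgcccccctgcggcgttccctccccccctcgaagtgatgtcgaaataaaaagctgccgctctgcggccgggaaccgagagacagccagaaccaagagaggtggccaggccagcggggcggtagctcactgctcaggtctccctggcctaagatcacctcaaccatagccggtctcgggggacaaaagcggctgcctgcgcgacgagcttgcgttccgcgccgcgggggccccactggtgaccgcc
Klf1: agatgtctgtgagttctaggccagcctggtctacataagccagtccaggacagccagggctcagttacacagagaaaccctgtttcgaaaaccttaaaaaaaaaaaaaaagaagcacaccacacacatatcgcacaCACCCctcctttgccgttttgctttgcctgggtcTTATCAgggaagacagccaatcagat
Gfi1b: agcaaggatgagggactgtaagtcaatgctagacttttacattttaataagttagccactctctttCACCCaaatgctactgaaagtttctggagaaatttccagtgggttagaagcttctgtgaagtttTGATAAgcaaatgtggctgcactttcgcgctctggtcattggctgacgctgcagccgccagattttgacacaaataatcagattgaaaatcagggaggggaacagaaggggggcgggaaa
A match describes letters and is no evidence of binding. Of the 10 members, 7 had a promoter entry, Nfe2, Lmo2 and Fli1 being without one.

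In the GENCODE M21 annotation of GRCm38, Gata1 lies on chromosome X (7959260 to 7978071, minus strand) and is the only X-linked member. Gata2 lies on chromosome 6 (88193891 to 88207032), Klf1 on chromosome 8 (84901928 to 84905291), Zfpm1 on chromosome 8 (122282141 to 122337251), Tal1 on chromosome 4 (115056426 to 115071755) and Lmo2 on chromosome 2 (103957986 to 103981878), all on the plus strand. Gfi1b on chromosome 2 (28609450 to 28621982), Nfe2 on chromosome 15 (103248212 to 103258403), Fli1 on chromosome 9 (32422204 to 32542861) and Runx1 on chromosome 16 (92601466 to 92826149) are on the minus strand. Runx1 shares exonic sequence with an antisense gene, Gm26626, and how the counting treated strand is not given in the sources used here.

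The libraries held from 83062003 to 150135029 counts of unique molecular identifiers (UMIs, each marking 1 captured transcript), and 59136 of 59465 barcodes had 200 or more detected genes. The members together contributed from 873 to 1077 CPM, that is UMIs per 1000000 UMIs, per library. Any pair of libraries shared from 6 to 27 cell barcodes. Since no annotation of cells was used, the cells were clustered without the 10 members into 29 clusters, which were named, where possible, from marker genes. HSC-like cells (cluster 2, 4380 cells, 357 to 804 per mouse) were led by Sult1a1, Meg3, Nupr1 and Ltb and carried the stem cell markers Ly6a, Procr and Hlf. Megakaryocyte-like cells (4067, from 359 to 684 per mouse), early erythroid-like cells (9212, from 610 to 1913) and basophil and mast cell-like cells (1758, from 139 to 291) were tested beside them. The early erythroid-like class joined cluster 1 (4724 cells), cluster 14 (1831), cluster 23 (626) and cluster 12 (2031). Cluster 12 was led by mt-Nd6, mt-Nd2 and Kel, with further mitochondrial genes, at a median of 4430 UMIs per cell. The basophil and mast cell-like class joined cluster 19, led by Prss34, Mcpt8, Ms4a2 and Fcer1a, and cluster 25, led by Gzmb, Cma1 and Mcpt2. No cluster was named as late erythroid cells, granulocyte-monocyte progenitors or erythroid-megakaryocyte precursors. Clusters 7 and 20 each held 7 granulocyte-monocyte progenitor markers among their 50 leading genes, but with more markers of neutrophils (S100a8, S100a9 and Cebpe) and of eosinophils (Prg2, Prg3 and Epx) than of progenitors among the first 10 they stayed unnamed. Cluster 0 (4785 cells, led by Csrp3, Clec4d, Trib2, Scin and Apoe), cluster 17 (1656 cells, led by Gm15915, Trib2, Ube2c and Cdc25b) and cluster 4 (3494 cells, led by Adgrl4, Tespa1 and Otos) held fewer than 4 markers of any class and have no cell type name. Levels are given as CPM of the class, summed per mouse, with the mean and SD over the 8 mice, so that the SD holds age and sex differences too. They were not divided by transcript length, as 1 tag is read per captured transcript, and a difference in CPM between genes also holds their difference in capture. Levels between classes are a description without a test, because the classes come from the same cells.

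The class with the highest level fell into 4 patterns among the 4 tested classes. Gata1, Klf1 and Gfi1b were highest in early erythroid-like cells, Tal1, Zfpm1 and Fli1 in megakaryocyte-like cells, Gata2 and Runx1 in basophil and mast cell-like cells, and Nfe2 and Lmo2 in HSC-like cells. Monocyte-like cells, which should lack the erythroid factors and are given as the background, held 2.25 CPM of Gata1, 3.59 of Klf1, 2.87 of Gfi1b and 8.99 of Gata2, but 280.0 CPM of Lmo2 and 74.1 of Runx1, which are broadly expressed. Free RNA and doublets were not told apart in this background.

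**Figure D1:**
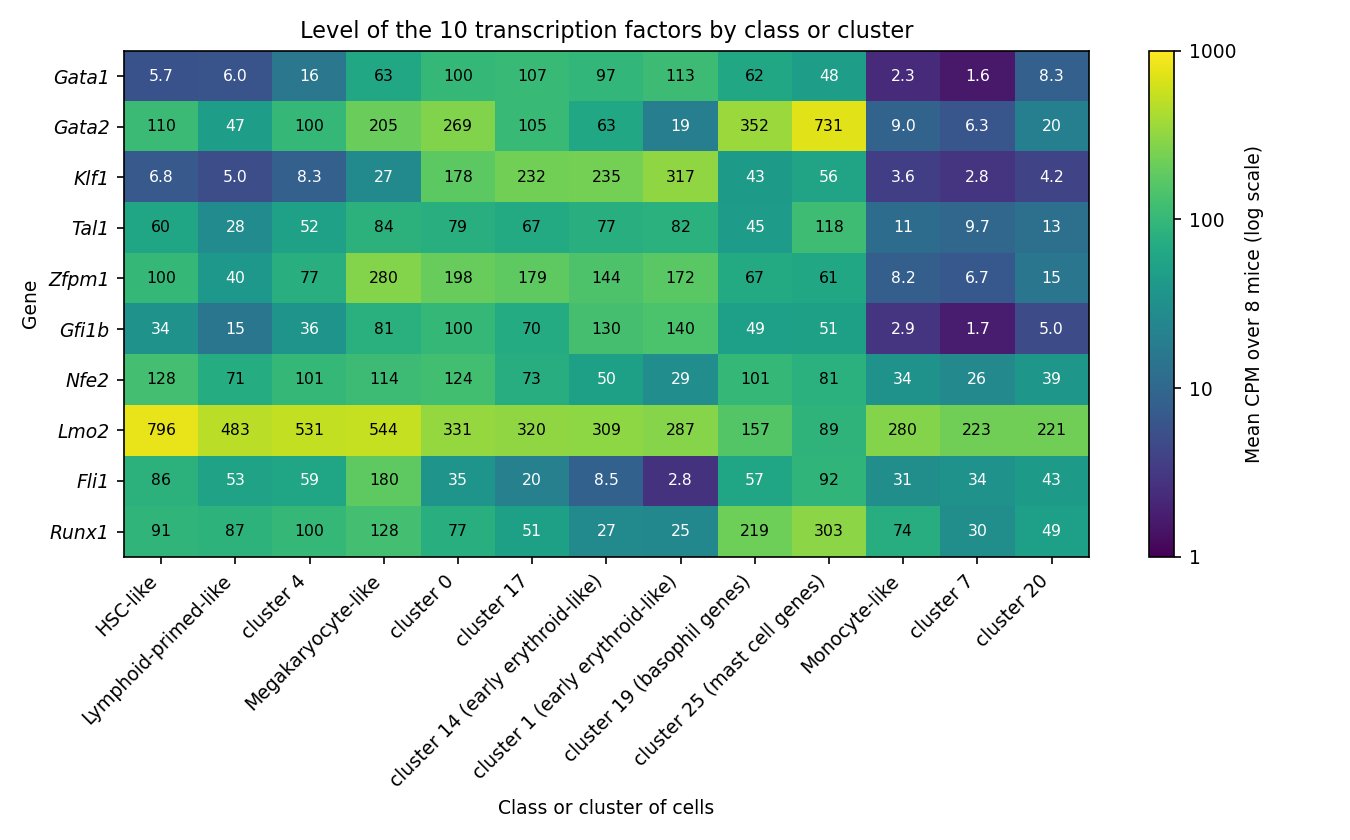
Mean level of the 10 genes (rows) in 13 classes or clusters of cells (columns), in CPM averaged over 8 mice, on a logarithmic colour scale with the value printed in each cell. Gata2 reaches 731 CPM in cluster 25, Fli1 ranges from 2.8 CPM in cluster 1 to 180 CPM in megakaryocyte-like cells, and Lmo2 is above 200 CPM in every column except clusters 19 and 25.

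Gata2 was most abundant in cluster 25, of the basophil and mast cell-like class, and lower in cluster 1 than in HSC-like cells and clusters 0, 17 and 14. It stood at 731 ± 67.4 CPM (SD, n = 8) in cluster 25, at 351.5 CPM in cluster 19, at 269 ± 57.0 CPM in cluster 0, at 205.4 ± 27.4 CPM in megakaryocyte-like cells and at 110.5 ± 34.5 CPM in HSC-like cells. Cluster 25 exceeded cluster 19, and megakaryocyte-like cells exceeded HSC-like cells, in 8 of 8 mice and without overlap of the ranges. HSC-like cells and cluster 17 (105.1 ± 37.0 CPM) did not differ beyond their spread, HSC-like cells being higher in 3 of 8 mice. From there the level of Gata2 was lower in cluster 14 (63.5 ± 31.4 CPM) and cluster 1 (19.2 ± 9.44 CPM), both of the early erythroid-like class. Cluster 23 of the same class held 68.4 CPM, above cluster 14 in 6 of 8 mice. After every cell was thinned to 4500 UMIs, a Gata2 UMI was seen in 94.3% of cells of cluster 25, in 67.1% of cluster 0, in 35.8% of HSC-like cells, in 8.70% of cluster 1 and in 3.91% of Monocyte-like cells.

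Gata1 was low in HSC-like cells and higher in the early erythroid-like clusters 14 and 1 and in the unnamed clusters 0 and 17. It was 5.65 ± 1.84 CPM in HSC-like cells, 15.6 CPM in cluster 4, and from 96.8 to 112.5 CPM in clusters 0, 17, 14 and 1, among which the ranges overlapped (cluster 1 exceeded cluster 17 in 5 of 8 mice). Cluster 23, also early erythroid-like, held 75.0 CPM, below cluster 14 in 8 of 8 mice without overlap. Megakaryocyte-like cells held 63.2 ± 9.99 CPM and basophil and mast cell-like cells 60.04 ± 4.63 CPM. In HSC-like cells the level was close to that in Lymphoid-primed-like cells (from 3.66 to 8.29 CPM), and with 4500 UMIs per cell the share of cells with a Gata1 UMI was 2.24%, against 1.99% in Lymphoid-primed-like and 1.04% in Monocyte-like cells. The median depth before thinning was 8148.5 UMIs in HSC-like and 23322 in Monocyte-like cells. At 5.65 against 2.25 CPM Gata1 in HSC-like cells lay above the level of Monocyte-like cells, and the part of free RNA in it was not tested.

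The balance of both factors was measured as the share of Gata1 in the sum of Gata1 and Gata2 UMIs. It was 5.49% in HSC-like cells (from 1.67% to 9.71% over the mice), 13.5% in cluster 4, 27.6% in cluster 0 (22.9% to 33.3%), 51.8% in cluster 17 (41.9% to 62.8%), 62.5% in cluster 14 (48.1% at the lowest) and 85.6% in cluster 1 (76.8% to 94.0%). The order of these 6 groups by share is a description of levels and not an inferred path of cells. The other early erythroid-like clusters, 12 and 23, had shares of 60.1% (45.6% to 80.1%) and 53.3% (41.5% to 68.3%). The mean share of cluster 23 lay below that of cluster 14, with overlapping ranges, although globin genes made up 0.0135% of its UMIs against 0.00166% in cluster 14. Between cluster 0 and cluster 1 the Gata2 level went from 269 to 19.2 CPM and the Gata1 level from 99.9 to 112.5 CPM. Relative to all UMIs of the cells, the larger difference was thus in Gata2. The median cell held 9224 UMIs in cluster 0 and 38313 in cluster 1. A similar CPM of Gata1 therefore stands for more Gata1 UMIs per cell in cluster 1, and the 2 factors were not compared per cell. Early erythroid-like cells split by their globin UMIs differed in the same directions. Of these, 8533 cells had under 0.1% and 671 had 0.1% to 1% globin UMIs. Only 3 mice held 20 or more cells in both bins. The higher bin held 197 cells of the young female, 222 of the very old male and 239 of the very old female. This split is not independent of the clusters, as cluster 1 was led by the globin gene Hba-a1. In these bins CPM was taken over all UMIs except those of globin genes. In the young female, the very old male and the very old female Gata2 was 22.1, 17.2 and 14.5 CPM in the lower bin and 9.78, 4.56 and 4.19 CPM in the higher. Gata1 was 113, 108 and 109 CPM in the lower and 134, 119.8 and 140.5 CPM in the higher bin, and its share went from 83.6%, 86.2% and 88.2% to 93.2%, 96.3% and 97.1%. Gata2 was thus lower and Gata1 higher in the bin with more globin in all 3 mice. Only 8 cells of the early erythroid-like class lay above 1% globin UMIs. Cluster 10 (2539 cells), led by Hbb-bs, Hba-a2 and Hba-a1 among others, carried 4 late erythroid markers but stayed unnamed at a median of 717 UMIs per cell, and is not part of this comparison.

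The megakaryocyte-like and the basophil and mast cell-like clusters held Gata1 at a share below that of clusters 17, 14 and 1. Megakaryocyte-like cells had a Gata1 share of 23.5% (20.6% to 26.6%), overlapping cluster 0, cluster 19 of 15.2% and cluster 25 of 6.06%. Single cells with UMIs of both Gata1 and Gata2 made up 24.8% of thinned cells in cluster 0 (20.3% to 28.9%), 19.9% in basophil and mast cell-like cells, 15.1% in megakaryocyte-like cells, 14.9% in cluster 17, 3.74% in cluster 1 and 0.950% in HSC-like cells. No doublets were removed for these shares, and the part of doublets in them was not tested.

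**Figure D2:**
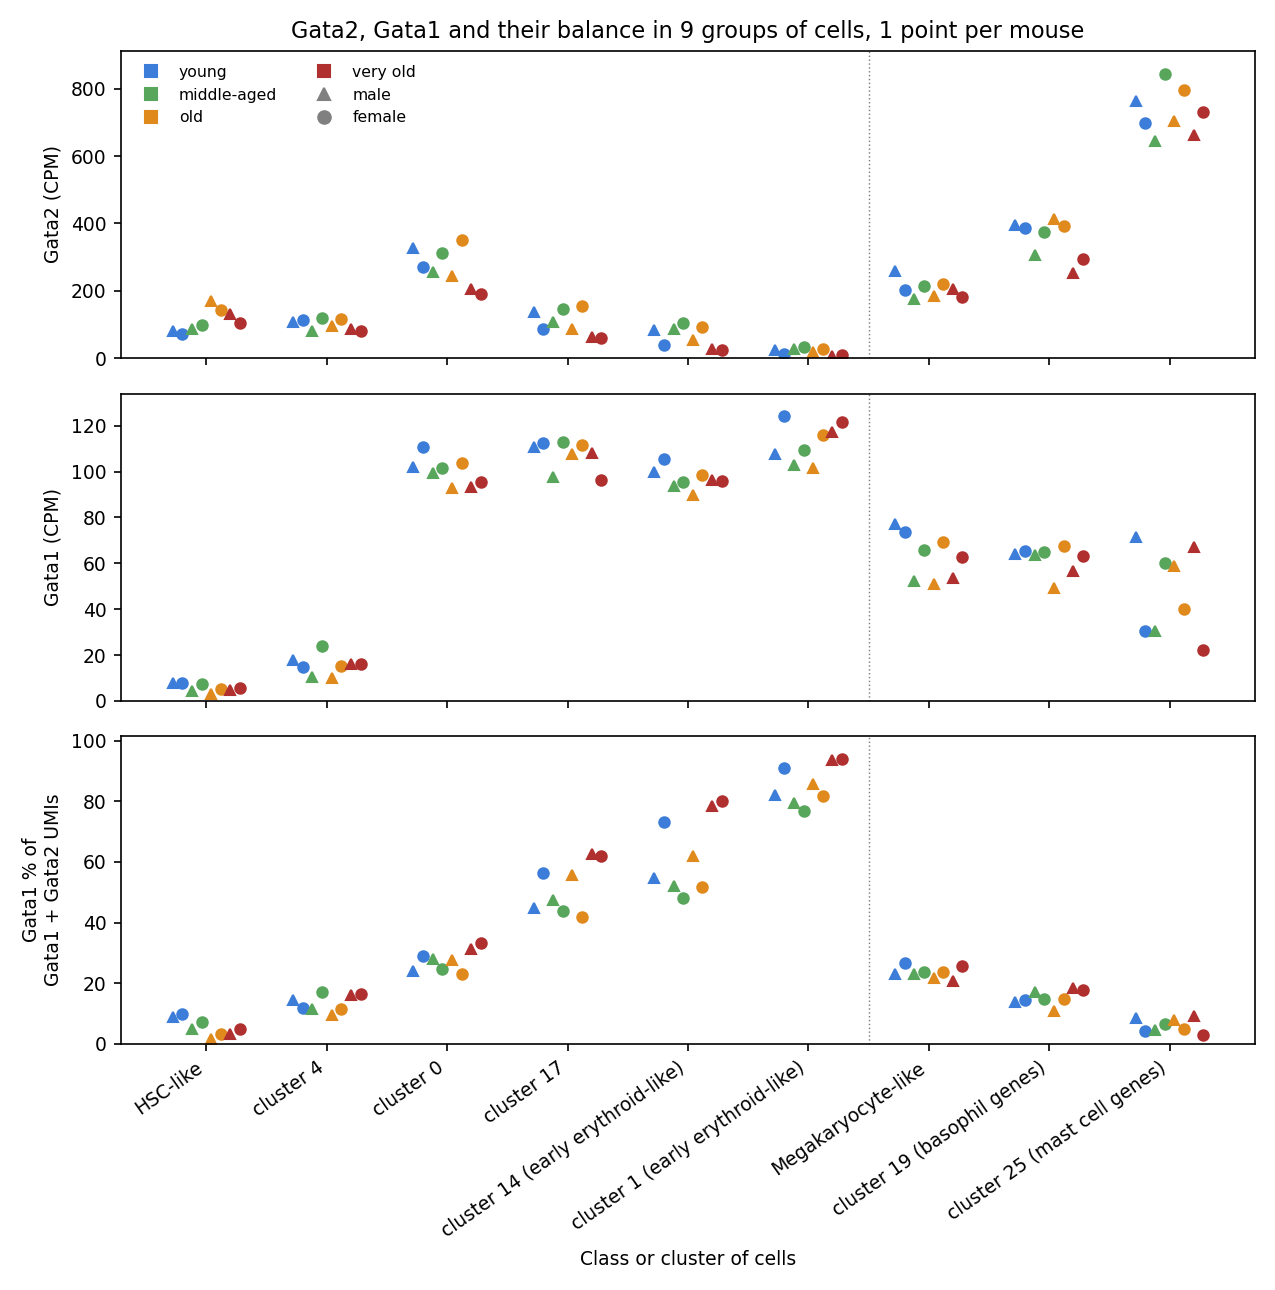
Gata2 level (top, CPM), Gata1 level (middle, CPM) and the Gata1 percentage of Gata1 plus Gata2 UMIs (bottom) in 9 groups of cells, with 1 point per mouse, coloured by age and shaped by sex; the dotted line parts the 6 groups ordered by share from megakaryocyte-like cells and clusters 19 and 25. The share is under 10% in all HSC-like points and above 76% in all points of cluster 1, and within clusters 17, 14 and 1 the very old mice and the young female lie above the other mice.

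Klf1 was higher in the early erythroid-like clusters 14 and 1 and in the unnamed clusters 0 and 17 than in megakaryocyte-like cells, and Fli1 the reverse. Klf1 was 317 ± 22.1 CPM in cluster 1, 235 ± 18.3 CPM in cluster 14, 232 ± 17.8 CPM in cluster 17 and 178 ± 14.0 CPM in cluster 0, against 27.1 ± 8.11 CPM in megakaryocyte-like cells and 6.84 ± 2.59 CPM in HSC-like cells. Cluster 1 exceeded cluster 14 in 8 of 8 mice without overlap. Fli1 was 180.3 ± 26.8 CPM in megakaryocyte-like cells, 85.6 ± 14.8 CPM in HSC-like cells, 35.5 ± 5.78 CPM in cluster 0 and 2.77 ± 1.36 CPM in cluster 1, below the 30.6 ± 5.10 CPM of Monocyte-like cells. Cluster 23, also early erythroid-like, held 170 CPM of Klf1 and 30.8 CPM of Fli1. As a share of Klf1 and Fli1 UMIs together, Klf1 made up 7.75% in HSC-like cells, 83.3% in cluster 0 (78.6% to 88.3%), 99.1% in cluster 1 and 13.3% in megakaryocyte-like cells (8.22% to 20.1%). UMIs of both Klf1 and Fli1 occurred in 7.75% of thinned cells of cluster 0, in 4.21% of megakaryocyte-like cells and in 1.73% of early erythroid-like cells. In HSC-like cells a Klf1 UMI was seen in 2.99% of thinned cells, close to the 2.15% of Lymphoid-primed-like cells.

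The other members were spread more evenly, but only over the 4 tested classes. In Monocyte-like cells and cluster 7 Gfi1b was 2.87 and 1.69 CPM and Zfpm1 was 8.20 and 6.70 CPM. Tal1 was 60.1 ± 7.67 CPM in HSC-like cells, 78.6 ± 4.82 CPM in early erythroid-like cells, 83.6 ± 5.16 CPM in megakaryocyte-like cells and 118 ± 19.9 CPM in cluster 25. Zfpm1 was 280.1 ± 23.8 CPM in megakaryocyte-like cells, above cluster 0 (198 ± 26.3 CPM) in 8 of 8 mice without overlap, then 164 ± 11.6 CPM in early erythroid-like, 100.4 ± 14.9 CPM in HSC-like and 66.7 ± 17.1 CPM in basophil and mast cell-like cells. Gfi1b stood at 130.5 ± 22.5 CPM in early erythroid-like cells, 80.5 ± 13.7 CPM in megakaryocyte-like cells and 34.0 ± 10.3 CPM in HSC-like cells. Lmo2 was the most abundant member by CPM in HSC-like cells (796 ± 117 CPM, with a UMI in 95.3% of thinned cells), and HSC-like cells exceeded megakaryocyte-like cells (544 ± 40.5 CPM) in 8 of 8 mice without overlap. Nfe2 was similar in HSC-like cells (128 ± 8.93 CPM) and cluster 0 (124 ± 15.6 CPM), higher in the former in 4 of 8 mice, and lowest among the tested classes in early erythroid-like cells (36.4 ± 6.93 CPM). Runx1 was 303 ± 34.3 CPM in cluster 25, 128 ± 6.86 CPM in megakaryocyte-like, 90.7 ± 7.38 CPM in HSC-like and 29.97 ± 3.18 CPM in early erythroid-like cells. A thinned cell held UMIs of 4.46 of the 10 members on average among megakaryocyte-like cells, 4.41 in cluster 0, 3.41 among early erythroid-like, 3.15 among HSC-like and 1.38 among Monocyte-like cells.

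Across 159 sums of 21 classes or clusters and 8 mice, the genes most like each member by Pearson correlation of log2(CPM + 1) were taken from 10412 genes as a description. Icam4 (r = 0.87), an erythroid adhesion molecule, was most like Gata1, followed by Mfsd2b. Car1 (r = 0.92), an early red cell carbonic anhydrase, was most like Klf1, followed by Blvrb and Aqp1. Apoe (r = 0.88), Gse1 and Slc18a2 were most like Gata2. Rgs18 (r = 0.84), a platelet regulator of G protein signalling, Cited2 and Zyx were most like Fli1. The closest to Tal1 (r = 0.82, then Cttn and Ldb1) and to Gfi1b (r = 0.85, then Hemgn and Car2) was another member, Zfpm1. Ldb1 bridges the complex of TAL1 and LMO2. Vamp5 (r = 0.87), Cttn and Gfi1b were closest to Zfpm1, and Pafah2 (r = 0.78), Spns2 and Gabarapl1 to Nfe2. For Lmo2 they were Tsc22d1 (r = 0.77), Gabarapl1 and Gtf2i, and for Runx1 Foxp1 (r = 0.88), Akap13 and Git2. Among member pairs, r was 0.81 for Gata1 and Klf1, 0.58 for Gata1 and Gata2 and -0.39 for Klf1 and Fli1. The sums share libraries and cells of neighbouring clusters.

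The comparison by age asked whether these factors differ between the old and very old mice (4, called older) and the 2 young mice within a class. The counts per mouse were fitted with edgeR over all genes of a class, with age and sex in the model. In HSC-like cells Gata2, Fli1, Tal1 and Zfpm1 were higher in older mice, 4 of 10 members, where 10.3% of the 11600 genes tested were called. Their 4 older mice all lay above both young mice. In megakaryocyte-like cells Klf1 was lower, 1 of 10 members beside 2.26% of all genes. No member was called in early erythroid-like cells (0.0% of all genes) or in basophil and mast cell-like cells (0.0490% of all genes). By edgeR 1 and 2 members of these classes had an unadjusted p under 0.05, and DESeq2 called none in either class. Among 20 alternatives, Gfi1b in early erythroid-like cells passed without a filter on low counts (adjusted p = 0.0448) and Zfpm1 in basophil and mast cell-like cells without the very old male (-0.68, adjusted p = 0.0356, both edgeR).

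Gata2 in HSC-like cells measured 79.5 and 72.3 CPM in the young male and female, 85.1 and 97.2 CPM in the middle-aged, 169 and 144 CPM in the old and 131 and 105 CPM in the very old mice. The old mice were highest, the very old followed, and no older mouse overlapped the young or the middle-aged. The fitted log2 fold change was 0.94 (SE 0.12, adjusted p = 0.000388, edgeR), which is 1.92-fold. With 4500 UMIs per cell, a Gata2 UMI was found in 25.2% and 25.9% of young, 31.3% and 32.8% of middle-aged, 47.4% and 45.2% of old and 42.0% and 37.1% of very old HSC-like cells. The call held under all 20 alternatives, with log2 fold changes from 0.75 to 1.10. Within the library series of the young mice, that is with the old mice alone, it was 1.10 (adjusted p = 0.000327, edgeR). In both measures every older mouse exceeded every younger one. The median HSC-like cell held fewer UMIs in each older mouse (6942 to 8063.5) than in either young mouse (8620 and 9168). Thinning left out shallow cells unequally, keeping 465 of 570 in the old female and 398 of 426 in the young female. The part of the cells left out was not tested.

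Fli1 in HSC-like cells was 68.6 and 63.8 CPM in the young, 90.2 and 81.2 CPM in the middle-aged, 96.3 and 89.5 CPM in the old and 110 and 85.5 CPM in the very old male and female. The middle-aged mice already lay above both young mice, and the fitted change was 0.62 (SE 0.11, adjusted p = 0.00379, edgeR). Tal1 measured 48.3 and 52.9 CPM in the young, 61.7 and 59.8 CPM in the middle-aged, 73.1 and 61.8 CPM in the old and 66.0 and 56.9 CPM in the very old mice, a change of 0.44 (SE 0.12, adjusted p = 0.0355, edgeR). For Zfpm1 the values were 82.9 and 82.4 CPM, 91.6 and 113 CPM, 99.96 and 118 CPM, and 119 and 95.8 CPM in the same order of ages, a change of 0.49 (SE 0.13, adjusted p = 0.0302, edgeR). Tal1 was called in 9 and Zfpm1 in 10 of 20 alternatives, DESeq2 not being among them (adjusted p = 0.148 and 0.0510). The very old female was the lowest of the older mice for Fli1, Tal1, Zfpm1 and Gata2. With the old mice alone, which share a library series with the young, the changes were 0.54 for Fli1 (adjusted p = 0.0195), 0.46 for Tal1 (adjusted p = 0.0558) and 0.45 for Zfpm1 (adjusted p = 0.0811, all edgeR). Without the young male, and likewise with marker gates in place of clusters, the changes of Fli1, Tal1 and Zfpm1 did not pass, and that of Gata2 did. That of Zfpm1 did not pass without the young female either.

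The remaining 6 members did not pass in HSC-like cells. Gata1 counted only 18 to 30 UMIs per mouse there, with 7.79 and 7.78 CPM in the young and from 2.87 to 5.52 CPM in the older mice, without overlap (log2 fold change -0.72, SE 0.28, adjusted p = 0.131, edgeR). Klf1 was 8.10 and 11.9 CPM in the young and from 4.95 to 7.16 CPM in the older mice, from 19 to 46 UMIs per mouse (-0.64, SE 0.28, adjusted p = 0.176, edgeR). Over all mice both were close to the level in Lymphoid-primed-like cells. Lmo2, from 712 to 896 CPM in the young and from 665 to 977 CPM in the older mice, Nfe2, Runx1 and Gfi1b overlapped between the age groups, with log2 fold changes from 0.04 to 0.33.

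**Figure D3:**
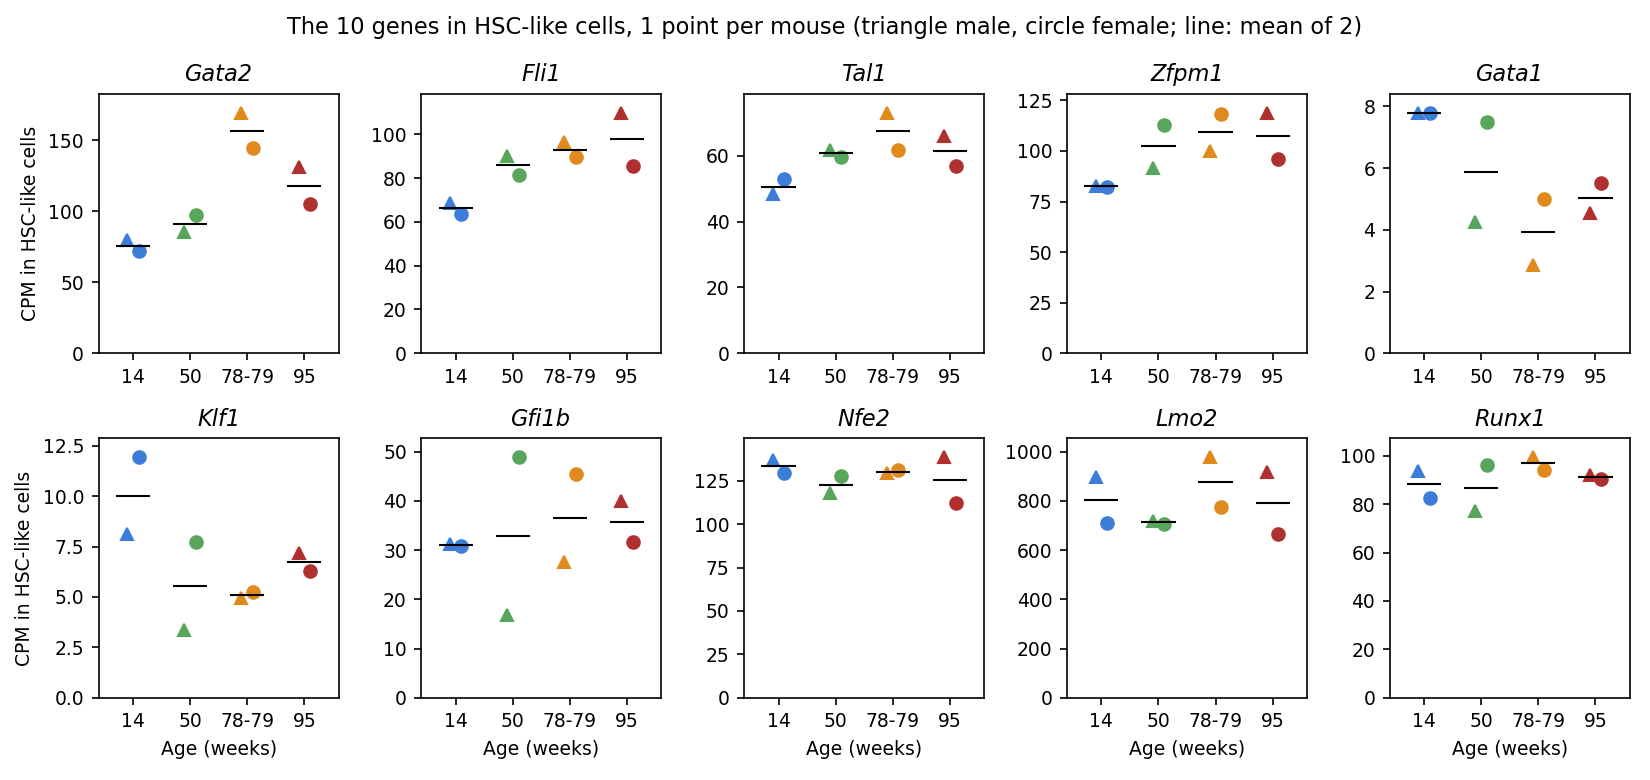
Level of the 10 genes in HSC-like cells (CPM, vertical axes starting at 0) by age in weeks, with 1 point per mouse (triangle male, circle female) and a line at the mean of both mice. Gata2 rises from 79.5 and 72.3 CPM at 14 weeks to 169 CPM at 78 and 144 CPM at 79 weeks, while Nfe2, Lmo2 and Runx1 overlap between the ages.

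The Gata1 share in HSC-like cells was 8.93% and 9.71% in the young, 4.75% and 7.14% in the middle-aged and from 1.67% to 5.0% in the 4 older mice. Older minus young, the difference was -5.98 percentage points, from 18 to 30 Gata1 UMIs per mouse. The exact two-sided permutation test gave p = 0.0667, the smallest value that 4 against 2 mice allow. In early erythroid-like cells the share was 70.6% and 84.8% in the young, 66.0% and 64.2% in the middle-aged, 76.6% and 67.4% in the old and 87.7% and 89.6% in the very old mice, so that the groups overlapped (exact permutation p = 0.733). Cluster 1, with the highest share, made up from 59.0% to 60.3% of the early erythroid-like cells in the young female and both very old mice and from 34.4% to 45.6% in the other mice. Megakaryocyte-like cells differed by -1.79 points (exact permutation p = 0.533) and basophil and mast cell-like cells by 0.374 points (exact permutation p = 0.867).

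In megakaryocyte-like cells Klf1 was 38.4 and 38.0 CPM in the young, 22.2 and 32.5 CPM in the middle-aged, 18.4 and 26.1 CPM in the old and 20.1 and 21.1 CPM in the very old male and female. All older and middle-aged mice lay below both young mice, and the fitted log2 fold change was -0.80 (SE 0.12, adjusted p = 0.00361, edgeR). With the old mice alone it was -0.77 (adjusted p = 0.0230, edgeR). It did not pass without the young male, nor with marker gates in place of clusters. Fli1 in the same cells was 152 and 162 CPM in the young and from 159 to 225 CPM in the older mice, and the change of 0.32 (SE 0.09, adjusted p = 0.0952, edgeR) did not pass. It passed in 4 of 20 alternatives, namely without a filter, at resolution 1.6, with the very old mice alone (0.52, adjusted p = 0.0192, edgeR) and without the old female. Gata1, at 77.0 and 73.5 CPM in the young and from 50.9 to 69.2 CPM in the older mice, differed by -0.33 (SE 0.10, adjusted p = 0.117, edgeR) without passing, but passed without a filter and without the young female. Gata2 and Zfpm1 overlapped between the ages, with log2 fold changes of -0.19 and -0.08.

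In early erythroid-like cells Gata2 ranged from 20.7 to 42.1 CPM in the young, from 49.5 to 55.6 CPM in the middle-aged and from 13.2 to 50.9 CPM in the older mice (log2 fold change -0.34, SE 0.26, adjusted p = 0.942, edgeR). Gfi1b was 155 and 162 CPM in the young, 105 and 124 CPM in the middle-aged and from 100.4 to 145 CPM in the older mice, without overlap, yet its change of -0.34 (SE 0.11, adjusted p = 0.763, edgeR) did not pass. Cluster 0 showed the same order for Gfi1b, with 123 and 129 CPM in the young and from 72.2 to 103 CPM in the older mice, a change of -0.43 (SE 0.10, adjusted p = 0.257, edgeR), where 0.120% of genes were called and 0 of 10 members. At an unadjusted p under 0.05 it had 3 members, and DESeq2 was not run on it.

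**Figure D4:**
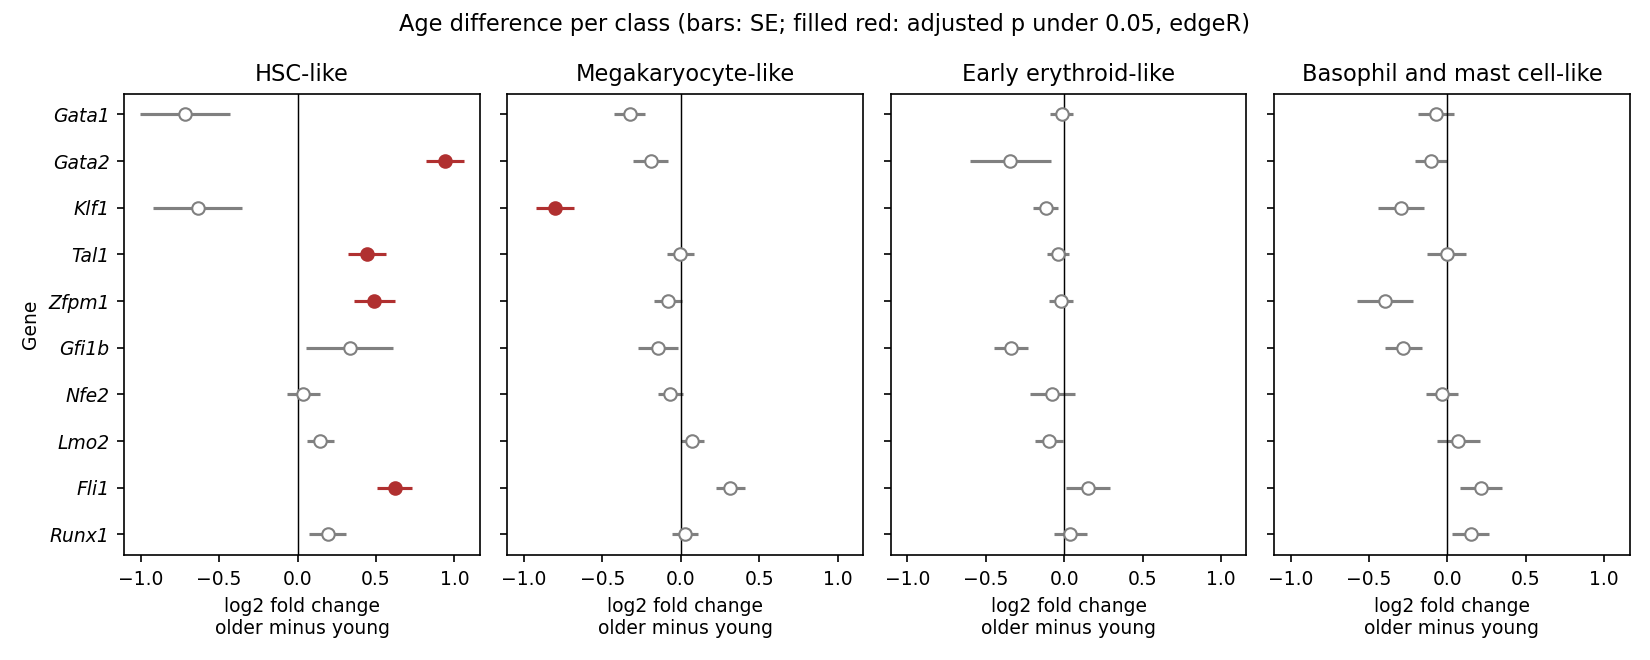
Fitted log2 fold change of older (4 mice) minus young (2 mice) for the 10 genes in the 4 tested classes, with bars of 1 SE and filled red points for an adjusted p under 0.05 (edgeR). Gata2, Fli1, Zfpm1 and Tal1 are filled to the right of 0 in HSC-like cells, Klf1 is filled to the left at -0.80 in megakaryocyte-like cells, and no point is filled in the other classes.

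Whether the age difference itself differed between classes was tested with limma on the difference of log2 CPM of 2 classes within each mouse. The age effect of Gata2 was larger in HSC-like than in megakaryocyte-like cells by 1.13 (SE 0.11, adjusted p = 4.74e-06, limma), that of Zfpm1 by 0.57 (SE 0.09, adjusted p = 0.00154, limma) and that of Tal1 by 0.45 (SE 0.12, adjusted p = 0.0343, limma). These 3 of 10 members stood beside 4.39% of all genes. The call held in 11 of 11 alternatives for Gata2 and in 10 for Zfpm1, which did not pass without the young male (adjusted p = 0.177, limma). For Tal1 it held in 4 and was lost without Harmony, with marker gates, without the sex term and without the young male, the very old male or either old mouse (adjusted p of up to 0.7, limma). Fli1, which was higher at older age in HSC-like cells, differed by 0.31 between the classes (adjusted p = 0.0931, limma), so that a difference was not shown. Against early erythroid-like cells Gata2 differed by 1.28 (SE 0.27, adjusted p = 0.0385, limma), 1 of 10 members beside 1.68% of all genes. That call held in 6 of 11 alternatives and was lost without either very old mouse, without the young male, without the sex term and with marker gates (adjusted p of up to 0.662, limma).

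Middle-aged mice, from the same library series as the young, showed 1 call among 40 tests of members and the 4 classes. Fli1 in early erythroid-like cells was 9.81 and 9.17 CPM at 50 weeks against 5.97 and 4.57 CPM at 14 weeks (log2 fold change 0.80, SE 0.16, adjusted p = 0.0422, edgeR), where 1.77% of all genes were called, and passed in 8 of 18 alternatives. These levels are far below the Fli1 level of Monocyte-like cells and, over all ages, rest on 127 to 258 Fli1 UMIs per mouse. Cluster 1 made up 34.4% and 37.8% of the early erythroid-like cells in the middle-aged mice against 42.0% and 60.3% in the young. In cluster 1 alone, a unit added after the data were seen, Fli1 was 3.69 and 4.80 CPM at 50 weeks against 2.33 and 1.47 CPM at 14 weeks (1.20, SE 0.29, adjusted p = 0.0402, edgeR). Over all ages cluster 1 held only 35 to 71 Fli1 UMIs per mouse. Gfi1b in cluster 1 was 114 and 134 CPM in the middle-aged and 164 and 177 CPM in the young male and female, without overlap, a change of -0.51 (SE 0.12, adjusted p = 0.0370, edgeR). These 2 of 10 members stood beside 4.01% of all genes, and single mice were not left out of this fit. No member was called in HSC-like (1.63% of all genes), megakaryocyte-like (0.104%) or basophil and mast cell-like cells (0.0392%). In these 3 classes 5, 4 and 2 members had an unadjusted p under 0.05, and DESeq2 called none. In early erythroid-like cells 6 members had an unadjusted p under 0.05, and DESeq2 called 2, Fli1 and Gfi1b. Gfi1b in that class differed by -0.54 (adjusted p = 0.059, edgeR).

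Between females and males, 4 mice each, no member was called in any of the 4 classes by edgeR or DESeq2, while 6 of 40 tests had an unadjusted p under 0.05. The calls over all genes were 0.578% in HSC-like, 0.337% in megakaryocyte-like, 0.148% in early erythroid-like and 0.333% in basophil and mast cell-like cells. X-linked Gata1 differed by 0.46 (SE 0.23, adjusted p = 0.486, edgeR) in HSC-like and by 0.24 (SE 0.08, adjusted p = 0.370, edgeR) in megakaryocyte-like cells, female minus male. Lmo2 in HSC-like cells differed by -0.28 (SE 0.07, adjusted p = 0.116, edgeR), with the female below the male at all 4 ages.

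Stem cells with transcripts of Vwf, which encodes the platelet adhesion protein von Willebrand factor, are a known subset with platelet gene expression. Among thinned HSC-like cells a Vwf UMI was seen in 3.18% and 2.01% of cells in the young, 11.7% and 11.7% in the middle-aged, 18.8% and 19.4% in the old and 18.3% and 11.7% in the very old male and female. In cells with a Vwf UMI Gata2 averaged 153 CPM over the mice, against 106 CPM in the other HSC-like cells. It was higher in 7 of 8 mice, from 384 UMIs in cells with and 1697 in cells without Vwf, and the log2 difference with the mouse as a block was 0.44 (SE 0.10, adjusted p = 0.00159, edgeR). Gata2 was the only 1 of the 9 members tested that was called, beside 4.19% of all genes. Gata1, with 6 UMIs in cells with Vwf, did not pass the filter on low counts. Runx1 (0.29, adjusted p = 0.182) and Fli1 (0.28, adjusted p = 0.196) were the next in size by edgeR. Only 10 and 8 such cells came from the young mice.

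Without the cells with a Vwf UMI, and with the remaining cells thinned to 4500 UMIs, the age difference in HSC-like cells was 0.91 for Gata2 (SE 0.14, adjusted p = 0.000252, edgeR) and 0.52 for Fli1 (SE 0.14, adjusted p = 0.0306, edgeR), 2 of 10 members beside 5.67% of all genes. Tal1 and Zfpm1 then stood at 0.40 and 0.35 and did not pass. Thinning alone, with the Vwf cells kept, gave 0.93 for Gata2 and 0.57 for Fli1, which passed, and 0.39 for Tal1 (adjusted p = 0.114) and 0.39 for Zfpm1 (adjusted p = 0.140, both edgeR), which did not. The split at this depth does not take out all cells with Vwf transcripts. Before thinning, with shallower cells kept, 237 HSC-like cells of the old male and 14 of the young male held a Vwf UMI. After thinning these were 135 and 10. The part of cells with Vwf in the Gata2 difference was therefore not tested.

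**Figure D5:**
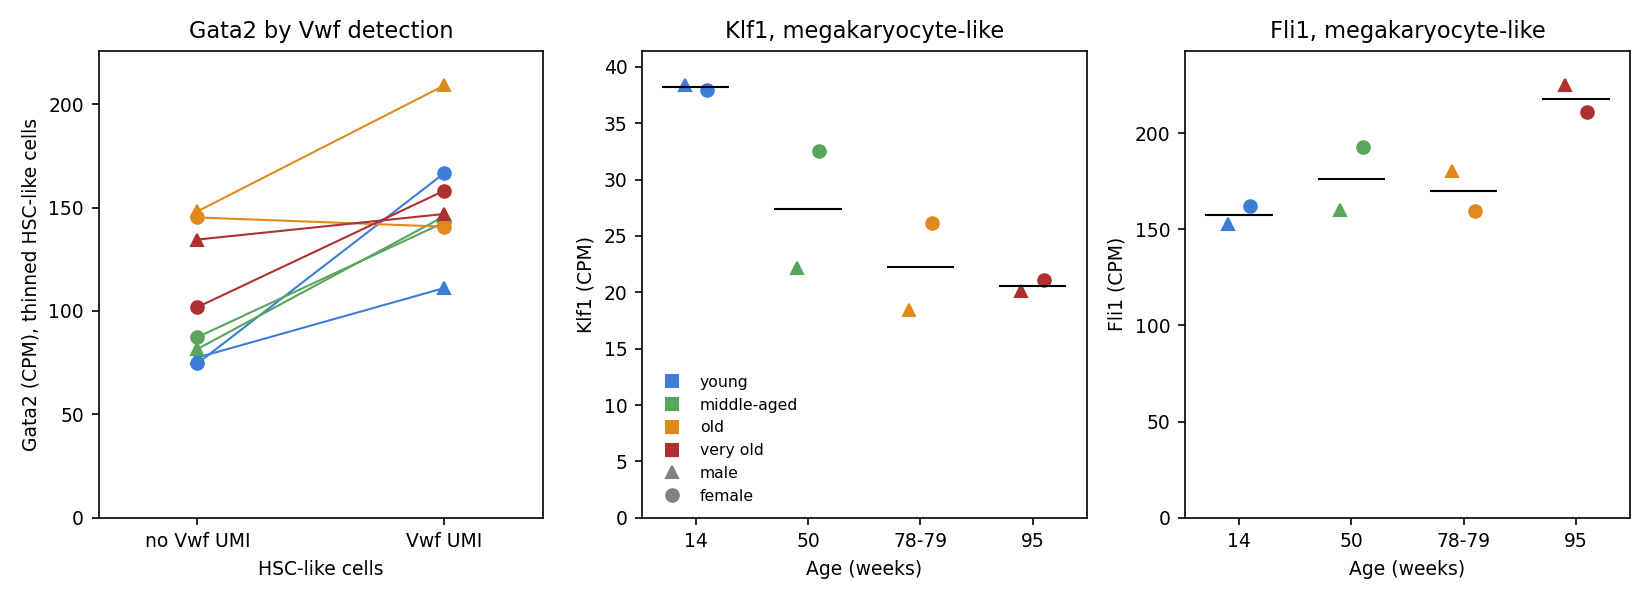
Left, Gata2 level (CPM) in thinned HSC-like cells without and with a Vwf UMI, with a line joining the values of each mouse. Middle and right, Klf1 and Fli1 level (CPM) in megakaryocyte-like cells by age in weeks, with 1 point per mouse and a line at the mean of 2. Gata2 is higher with Vwf in 7 of 8 mice, the older mice lie between 18.4 and 26.1 CPM of Klf1 against 38.0 and 38.4 CPM in the young, and Fli1 reaches 211 and 225 CPM in the very old mice.

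The other genes of the network were read from 3 lists of 20 cofactors and related factors, 16 erythroid genes (15 in the files) and 14 megakaryocyte genes. In HSC-like cells of older mice, 0 of 20 cofactors were higher and 5 lower (median log2 fold change -0.13, against -0.03 over all genes), where 752 of all 11600 genes (10.3% called in all) were higher and 442 lower. These were Cebpa (-1.82, SE 0.27) and Spi1 (-0.65, SE 0.14), factors of the myeloid lineage, Ikzf1 (-0.55, SE 0.12), a lymphoid factor, Cbfb (-0.46, SE 0.12), the partner of RUNX1, and Myb (-0.37, SE 0.10), a progenitor factor. Of 10 megakaryocyte genes tested, 7 were higher and 0 lower (median 0.74), among them Vwf (3.26, SE 0.20), Selp (3.11, SE 0.24) and Itgb3 (2.61, SE 0.30). Of 11 erythroid genes, 0 were higher and 2 lower, Hbb-bt (-1.01, SE 0.21) and Rhd (-1.44, SE 0.41), with a median of -0.45. Globin genes made up 0.00501% of the UMIs of HSC-like cells, and the part of free RNA in Hbb-bt and Rhd was not tested. HSC-like cells held 49.7 CPM of Pf4, a platelet granule gene, against 3369 CPM in megakaryocyte-like cells, and the part of any megakaryocytic cells among them was not tested.

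In megakaryocyte-like cells of older mice 3 of 13 erythroid genes were lower, namely Car1 (-1.04, SE 0.12), Ermap (-1.30, SE 0.25) and Rhd (-1.51, SE 0.33), beside the lower Klf1. Of 13 megakaryocyte genes, 3 were higher, namely Selp (1.68, SE 0.19), Vwf (0.96, SE 0.19) and Pf4 (0.61, SE 0.14), and none of the 20 cofactors was called, where 2.26% of all genes were. No gene of the 3 lists was called between older and young mice in early erythroid-like or in basophil and mast cell-like cells. In cells with a Vwf UMI, 4 of 9 megakaryocyte genes were higher, among them Selp, Itgb3 and Itga2b, and 1 lower (Pf4, -0.84, SE 0.19). The cofactors Spi1, Myb and Ikzf1 were lower and Ets1 higher, 4 of 20, and 0 of 9 erythroid genes were called, where 4.19% of all genes were. All of these calls are at an adjusted p under 0.05 by edgeR.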

How the data were processed

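The authors counted reads with Cell Ranger (mm10 per the submitters' processing notes) and deposited them as raw UMI counts, without normalization. The deposited matrices name version 6.0.0 and the methods another, and the labels name more than 1 chemistry. The members and lists were chosen with earlier results of these data known.

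Cells with 200 or more genes were kept (median depth 8505 to 14951 UMIs per library). The members, the genes of chromosome Y, Xist and Tsix were left out, and other X-linked genes were kept. The 2000 most variable genes gave 30 principal components, corrected by Harmony, coded anew (θ = 1), and clustered by the Leiden method (scanpy 1.11.5, leidenalg 0.10.2, 20 neighbours, resolution 0.8). A class name needed 4 or more markers among the 50 leading genes, no more markers of another class than of its own among the first 10, at least 0.1 of its libraries' median depth and, at low depth, a marker among the first 10, a condition that decided no name. These limits were set after the clusters were seen. Clusters 7, 11, 20 and 24 failed the second condition and cluster 10 the third. Doublets were not removed. Scrublet called under 0.5% of cells in 4 of 8 libraries.

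Sums per mouse and class were tested with edgeR 4.0.16 (filterByExpr, TMM, quasi-likelihood test, age group and sex, Benjamini-Hochberg adjustment over all genes, threshold 0.05) and differences between classes with limma 3.58.1 (prior count 2), in R 4.3.3. DESeq2 1.42.0 and other settings were alternatives. Shares of cells used 4500 UMIs per cell, leaving out shallower cells. Scripts were tested on simulated data. Named were all 10 members, the 3 genes most like each, and up to 4 genes per list with the smallest adjusted p. Some genes that this rule names are not reported here. Myb at older age, the Pf4 level and the member pairs correlated were chosen after their values were seen.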

Additional observations from a re-analysis of the deposited data

Results flagged for a closer look

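In 4 cases the age effect, older minus young, of a member differed between classes in a test of the difference itself (limma on differences of log2 CPM within a mouse). For Gata2 the effect in HSC-like cells exceeded that in early erythroid-like cells by 1.28 (SE 0.27, adjusted p = 0.0385) and that in megakaryocyte-like cells by 1.13 (SE 0.11, adjusted p = 4.74e-06). The effect in HSC-like cells exceeded that in megakaryocyte-like cells by 0.57 for Zfpm1 (SE 0.09, adjusted p = 0.00154) and by 0.45 for Tal1 (SE 0.12, adjusted p = 0.0343). Of 11 alternatives, 6 kept the call of Gata2 against early erythroid-like cells and 11 that against megakaryocyte-like cells, 10 kept that of Zfpm1 (lost without the young male) and 4 that of Tal1. The Vwf-positive share of HSC-like cells ranged from 2.01% in the young female to 19.4% in the old female, and its part in these effects was not tested. No sample of the 44 groups of 4 older mice lay far enough from the others to be singled out by Dixon's test.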

How the results depend on the processing

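The class with the highest level of each of the 10 members was the same under every alternative. For Gata2 in HSC-like cells of older mice all 20 alternatives kept the call, with adjusted p of 0.0144 or less, and for Fli1 in HSC-like and Klf1 in megakaryocyte-like cells 18 of 20 did, the exceptions being marker gates in place of clusters and leaving out the young male. In place of 5 calls by age, 3 of the same calls were made with DESeq2, with cells thinned, without Harmony, without the sex term and with the old mice alone and 1 with marker gates, while 6 were made at resolution 1.6 (Fli1 in megakaryocyte-like cells added) and 8 without a filter on low counts (Gfi1b in early erythroid-like cells and Gata1 and Fli1 in megakaryocyte-like cells added). Leaving out single mice gave from 1 (without the young male) to 5. For middle-aged against young mice, in place of 1 call, 2 were made with DESeq2, 6 without a filter and 0 with cells thinned, without Harmony, with marker gates, without the sex term and at resolution 1.6, and single mice left out gave from 0 to 3 (3 without the young male, 2 without either old mouse, 0 without the young female or any middle-aged or very old mouse). Between sexes 2 calls were made without a filter, and from 0 to 1 with a mouse left out (either middle-aged mouse). For Vwf, 0 calls were made with no replicate block (Gata2, adjusted p = 0.0684), 2 without Harmony and 4 with cells not thinned. Pairing by mouse is given by the design, as both sums come from 1 mouse. For HSC-like against early erythroid-like age effects, 0 calls were made with marker gates and without the sex term, and from 0 to 4 with a mouse left out (0 without the young male or either very old mouse, 4 without either middle-aged mouse). Against megakaryocyte-like cells the count ranged from 1 (without the young male) to 5 (without either middle-aged mouse). The difference in Gata1 share, for which 4 against 2 mice allow no p under 0.0667, turned sign in megakaryocyte-like cells with marker gates (0.571 points) and with thinned cells (0.619), and with mice left out it ranged from -3.67 to 0.0818. In early erythroid-like cells it ranged from -4.46 to 9.77 and in basophil and mast cell-like cells, at -1.69 with marker gates, from -0.613 to 1.43 with mice left out. The cause of these differences was not tested. Thinned cells, single clusters as units (with 2 middle-aged calls in cluster 1) and HSC-like cells without Vwf were added after the data were seen. Among the other results, 2329 values kept their sign and stayed called or not called, 146 without a call changed sign, 38 gained and 49 lost a call. Size was not compared in this count. Depth limits Gata1 and Klf1 in HSC-like cells, at 18 to 46 UMIs per mouse.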
